A study of Saccharomyces cerevisiae with 4 samples.

Results

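The genes described here are 10 genes of NAD synthesis, salvage and uptake in budding yeast (Saccharomyces cerevisiae), led by PNC1, among the 6207 open reading frame (ORF) rows of a table of transcript ratios. They were chosen by name, as PNC1, NPT1, NMA1, NMA2, BNA1, BNA2, BNA4, BNA5, BNA6 and TNA1, and found by systematic name (YGL037C, YOR209C, YLR328W, YGR010W, YJR025C, YJR078W, YBL098W, YLR231C, YFR047C and YGR260W). All 10 had a row, 9 had a value on each of 4 arrays and entered the test, and BNA2 had no value on any array. Wild-type cells grown in rich medium (YEPD) at 24 °C, with a regrowth of 2 h 30 min, were split into a part left untreated and a part given Zymolyase 100T at 5 units/ml for 3 h; the preparation digests the glucan of the cell wall. The labels name no strain or allele beyond wild type. RNA of 2 cultures was hybridised on 4 two-colour arrays, with either dye assignment used for each culture. Treated RNA was labelled with Cy3 for arrays 1 and 3, and with Cy5 for arrays 2 and 4.

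Which channel is the numerator of a ratio is not named. Signs were turned by the dyes so that the 4 arrays run the same way, and the sign of the whole was set so that SLT2, which encodes the cell wall integrity kinase, is positive. A positive log2 ratio therefore means the side of SLT2, and a negative one the opposite side. As background, damage to the wall is known to induce SLT2, so its side is likely the higher in treated cells, though no label settles this. As deposited, SLT2 was positive on the arrays with treated RNA on Cy3 (2.14 and 2.18) and negative on those with it on Cy5 (-2.39 and -2.31). Values are log2 ratios given as mean ± SD of 4 arrays (n = 2 cultures); the base of the logarithm is not stated and was taken as 2. Tests are limma's, with Benjamini-Hochberg adjustment over the 4543 ORFs that had 4 values, at a threshold of 0.05.

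NAD carries electrons in metabolism and is also a substrate that sirtuins and other enzymes consume, releasing nicotinamide. Yeast makes it de novo from tryptophan by the kynurenine route (Bna2, Bna7, Bna4, Bna5, Bna1, then Bna6, which yields nicotinic acid mononucleotide), or recovers it by salvage, in which Pnc1 converts nicotinamide to nicotinic acid and Npt1 turns nicotinic acid into the same mononucleotide. The adenylyltransferase pair Nma1 and Nma2 acts next on the product of either route, and Qns1 completes NAD, while Tna1 brings nicotinic acid and quinolinic acid into the cell. Pnc1 is also known as a stress-induced protein that stimulates the sirtuin Sir2 by removing nicotinamide, which inhibits it.

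PNC1 and TNA1 passed the test, on opposite sides, and the other 7 measured genes did not pass. That is 1 of 9 on the side of SLT2, where 4.56% of all tested ORFs passed, and 1 of 9 opposite, where 1.39% did, or 5.94% on either side. Of all ORFs past the test 76.7% lay on the side of SLT2, and this share moved with the processing. It was 48.7% with array 1 paired with 4 and array 2 with 3, 61.4% with robust empirical Bayes, 62.3% for independent arrays with a dye term (64.1% with ORFs of 3 values admitted) and 66.0% at a threshold of 0.1. It was 88.6% with arrays centred and scaled, 90.2% at a threshold of 0.01 and 93.9% with arrays centred on all measured ORFs. The median of the 9 means was -0.02, beside -0.03 over all tested ORFs. RNA came from whole cultures, so a change in the share of cells that express a gene cannot be told apart from a change in RNA per cell.

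**Figure D1:**
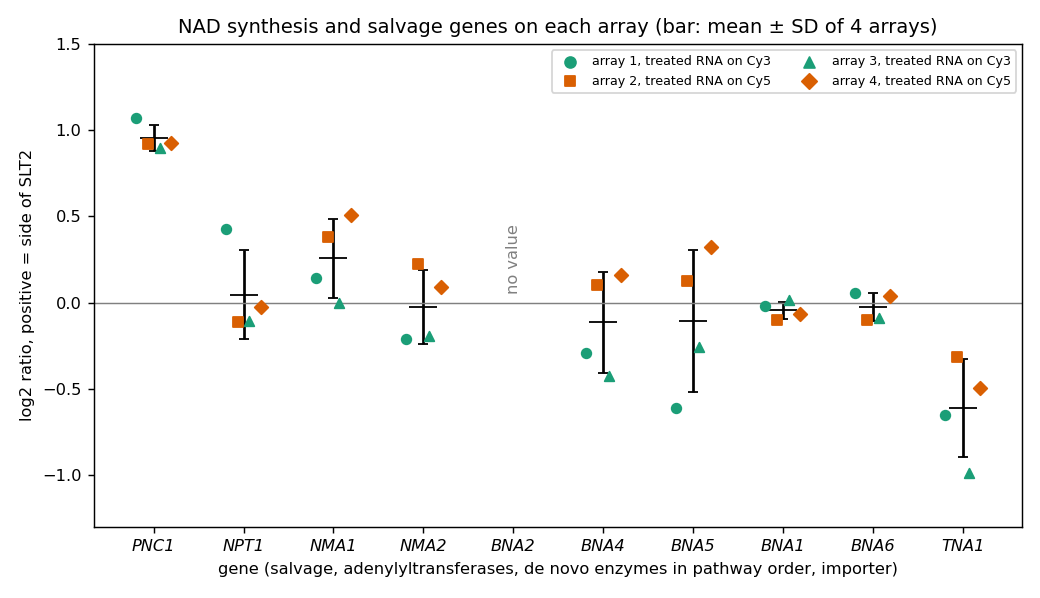
Log2 ratio (vertical axis, positive on the side of SLT2) of each NAD gene on each of the 4 arrays, with the horizontal bar and whiskers at the mean ± SD of 4 arrays; green marks arrays with treated RNA on Cy3 (1 and 3), and orange those with it on Cy5 (2 and 4). PNC1 lies between 0.90 and 1.07 on the 4 arrays, above every other gene shown, and TNA1 lies below 0 on each array.

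The salvage pair parted. PNC1, the nicotinamidase gene, had 1.07 on array 1, 0.92 on array 2, 0.90 on array 3 and 0.93 on array 4. All 4 values lay on the side of SLT2 and close together, and their range did not overlap that of any other NAD gene measured. The mean was 0.95 ± 0.08, a ratio of 1.94-fold if the base is 2 (adjusted p = 0.00264 in limma; 95% interval 0.68 to 1.23, the wider of those from 2 pairings of the arrays). It was the 78th highest of 4543 means on that side, and its SD compares with a median SD of 0.24 over all tested ORFs. The call remained in each of the 14 other fits, with values from 0.91 to 1.00. Those that change only the pairing, the dye term or the error model repeat the mean of 0.95 by construction. With arrays 1 and 2, and 3 and 4, as the cultures, the adjusted p was the one reported (0.00264 in limma). The reported p is the larger of those from the 2 pairings, so the call under each single pairing was fixed by it.

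NPT1, the nicotinate phosphoribosyltransferase gene that follows PNC1 in salvage, had 0.43 on array 1, -0.11 on arrays 2 and 3, and -0.02 on array 4. Only array 1 was positive, and the other 3 lay just below 0. The mean of 0.05 ± 0.26 did not pass (adjusted p = 0.897 in limma; 95% interval -0.24 to 0.34). The PNC1 ratio exceeded the NPT1 ratio on 4 of 4 arrays, by 0.64 to 1.04. An exact two-sided sign-flip permutation test of that difference over the arrays gave p = 0.125, the smallest that 4 arrays allow. It flips the 4 arrays as if independent, though they come from 2 cultures, so it does not measure the spread between cultures. It also could not have reached 0.05, and nothing is concluded from it.

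The adenylyltransferase genes are paralogues whose products perform the same step. NMA1 had 0.14, 0.38, 0.00 and 0.51 on arrays 1 to 4. The higher values were those of arrays 2 and 4, with treated RNA on Cy5. Its mean was 0.26 ± 0.23 (adjusted p = 0.296 in limma; 95% interval -0.02 to 0.53), and it passed in 1 of 14 other fits, the one that pairs array 1 with 4 and array 2 with 3 as cultures (adjusted p = 0.0342 in limma), in which 27.1% of all tested ORFs passed. NMA2 had -0.21, 0.22, -0.19 and 0.09 on arrays 1 to 4, negative with treated RNA on Cy3 and positive with it on Cy5. Its mean, which weighs the dye orientations equally, was -0.02 ± 0.21 (adjusted p = 0.945 in limma; 95% interval -0.30 to 0.25). Within each array the NMA1 ratio was the higher, by 0.35, 0.16, 0.19 and 0.42, a mean difference of 0.28 ± 0.13. The same exact sign-flip permutation test gave p = 0.125 for this difference, again the smallest possible. It has the same limit, since it takes the 4 arrays of 2 cultures as independent. Probe sequences were not used here, so signal shared between the paralogues was not tested.

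The de novo genes stayed near 0 as means. BNA4, the kynurenine 3-monooxygenase gene, had -0.29, 0.10, -0.43 and 0.16 on arrays 1 to 4 and a mean of -0.12 ± 0.29. BNA5, the kynureninase gene, had -0.61, 0.12, -0.25 and 0.32, with a mean of -0.11 ± 0.41, the widest SD of the 9 genes. Both were negative on arrays 1 and 3 and positive on arrays 2 and 4, so their sign followed the dyes as that of NMA2 did. BNA1, which encodes 3-hydroxyanthranilate dioxygenase, had -0.02, -0.10, 0.01 and -0.06 (mean -0.04 ± 0.05). BNA6, the quinolinate phosphoribosyltransferase gene at which the de novo route joins salvage, had 0.05, -0.10, -0.09 and 0.04 (mean -0.02 ± 0.08). Those last genes had the tightest spread of the NAD genes beside PNC1, and no array lay further from 0 than 0.10. None of these 4 genes passed in limma (adjusted p from 0.685 to 0.945), and the 95% intervals reached from -0.39 to 0.16 for BNA4, -0.40 to 0.19 for BNA5, -0.32 to 0.23 for BNA1 and -0.30 to 0.25 for BNA6. BNA2, the tryptophan 2,3-dioxygenase gene that opens the route, could not be assessed.

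TNA1, the gene of the high-affinity nicotinic acid permease, had -0.65 on array 1, -0.32 on array 2, -0.99 on array 3 and -0.49 on array 4. All 4 arrays lay opposite to SLT2, the lower values where Cy3 labelled the treated RNA (arrays 1 and 3). The mean was -0.61 ± 0.28, a ratio of 1.53-fold (adjusted p = 0.0283 in limma; 95% interval -0.91 to -0.32), and it was the 43rd lowest of 4543 means. Array rows named 3XSSC and Arabidopsis, which name no yeast gene, ran from -0.29 to -0.07 and from -0.39 to 0.22. TNA1 lay below both on 4 of 4 arrays. So did FEN2 and RAD2, described below, which did not pass. The share of all ORFs that did so was not counted, so this does not set TNA1 apart. The call ended with arrays centred (adjusted p = 0.0589 in limma), centred and scaled (0.0734), centred on all measured ORFs (0.0908) and quantile normalized (0.0597), without array 3 (-0.53, adjusted p = 0.0555) and without array 4 (-0.57, adjusted p = 0.0690). The mean stayed negative in all 14 other fits, from -0.70 to -0.53. Those that change only the pairing, the dye term or the error model repeat the mean of -0.61 by construction.

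Ordered by mean ratio, the genes ran PNC1, NMA1, NPT1, NMA2, BNA6, BNA1, BNA5, BNA4 and TNA1. The array ranges of PNC1 and NMA1 were separated by 0.39. Every other pair of neighbours in this order overlapped, BNA4 and TNA1 included, which shared a stretch of 0.11.

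**Figure D2:**
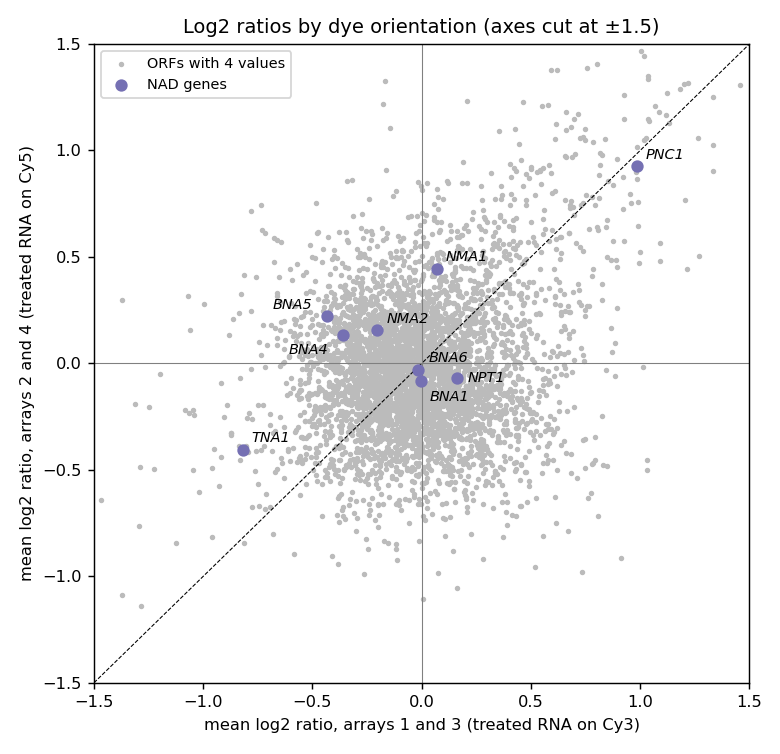
Mean log2 ratio of arrays 1 and 3 (horizontal axis, treated RNA on Cy3) against that of arrays 2 and 4 (vertical axis, treated RNA on Cy5) for each ORF with 4 values in grey and the 9 NAD genes in purple, with the dashed line marking equal values. PNC1 sits on the line (0.98 and 0.92), TNA1 is negative on both axes (-0.82 and -0.41), and NMA2, BNA4 and BNA5 lie in the part that is negative on the first axis and positive on the second.

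Dye orientation divided the NAD genes further. PNC1 and TNA1 were the only ones of 9 with 1 sign on all 4 arrays, against 13.1% of all tested ORFs that were positive on 4 of 4 arrays and 15.3% that were negative on 4 of 4. NMA2, BNA4 and BNA5 were positive only with treated RNA on Cy5, a pattern that 9.77% of tested ORFs showed, and 0 of the 9 were positive only with treated RNA on Cy3 (11.6% of ORFs). For genes of the first pattern the deposited values had the same sign on all 4 arrays before turning. Each mean holds both orientations equally. A fit with a dye term must therefore return the same means for NMA2 (-0.02), BNA4 (-0.12) and BNA5 (-0.11), and is no separate check on them.

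Other genes of NAD metabolism outside those 10 were read from lists of the route's remaining steps. Of 9 further synthesis and salvage genes, 0 passed in limma, and the median was 0.04. An unadjusted p under 0.05 was found for 1 of the 9, BNA3, and for 19.3% of all tested ORFs. BNA3, a kynurenine aminotransferase gene on a side branch of the de novo route, had 0.09, 0.56, 0.05 and 0.77 on arrays 1 to 4. It was positive on each array and higher on arrays 2 and 4, with a mean of 0.37 ± 0.35 (adjusted p = 0.133 in limma), and passed in 4 of 14 other fits. The lowest was NRT1, the nicotinamide riboside transporter gene (-0.27 ± 0.54), which ran from -0.97 on array 1 to 0.30 on array 4. QNS1, the NAD synthetase gene, had -0.01 ± 0.19. With array 1 paired with 4 and array 2 with 3, 3 of these genes besides BNA3 passed: PNP1 (0.27 ± 0.27), ISN1 (0.25 ± 0.19) and NRT1, in a fit where 27.1% of all tested ORFs passed. Pnp1 and Isn1 act on nicotinamide riboside and its phosphate.

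Of the NAD kinase and mitochondrial carrier genes, 0 of 4 tested passed in limma and 1 had an unadjusted p under 0.05 (19.3% of all tested ORFs). That was POS5, the mitochondrial NADH kinase gene and the highest of them (0.30 ± 0.23, positive on 4 of 4 arrays), while the NAD carrier gene YEA6 was the lowest (-0.01 ± 0.44). YEF1, with values on 3 arrays from -0.12 to 0.25, did not enter the test. Of 7 tested genes of sirtuins, their partners and the NAD-using tRNA phosphotransferase gene TPT1, 0 passed in limma. An unadjusted p under 0.05 was found for 1 of the 7, and for 19.3% of all tested ORFs. SIR2, the histone deacetylase gene whose product nicotinamide inhibits, had -0.38, -0.16, -0.34 and -0.32 on arrays 1 to 4. These values were all opposite to SLT2 and close together, with a mean of -0.30 ± 0.10 that did not pass (adjusted p = 0.217 in limma). HST3 was the highest of the sirtuin genes (0.18 ± 0.27).

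Tryptophan feeds the de novo route. Of 10 genes of tryptophan synthesis, uptake and breakdown 0 passed in limma, and 3 had an unadjusted p under 0.05 (19.3% of all tested ORFs). ARO10, a decarboxylase gene of aromatic amino acid breakdown, was the highest (0.55 ± 0.35, adjusted p = 0.0841 in limma) and positive on each array, from 0.12 on array 3 to 0.90 on array 1. It passed in 3 of 14 other fits, among them the one without array 3 (0.75, adjusted p = 0.0468 in limma). Without array 1 its value was 0.36 (adjusted p = 0.143) and without array 2 it was 0.46 (adjusted p = 0.236). TAT1, an amino acid permease gene, was the lowest (-0.49 ± 0.37, adjusted p = 0.0998 in limma) and negative on each array. In 6 of the 10 genes the value was positive only with treated RNA on Cy5, the pattern of NMA2, BNA4 and BNA5 and of 9.77% of all tested ORFs.

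Tna1 belongs to a family of anion and vitamin transporters named for the allantoate permease Dal5. Of its 7 listed relatives 4 had values on 4 arrays, and the mean of each of those was negative (median -0.31), as was that of 56.7% of all tested ORFs. In limma 0 of the 4 passed, and 2 had an unadjusted p under 0.05, against 19.3% of ORFs. THI73 came closest to the threshold, with 0.03, -0.84, -0.38 and -0.83 on arrays 1 to 4. Array 1 stood at 0 while the others were negative, and the mean was -0.50 ± 0.42 (adjusted p = 0.0576 in limma). THI73 passed in 6 of 14 other fits, among them the one without array 1 (-0.60, adjusted p = 0.0422 in limma), and not in those without array 2, 3 or 4 (-0.50, -0.40 and -0.50). FEN2, the pantothenate transporter gene, had -0.34 ± 0.20 and VHT1, the biotin transporter gene, -0.27 ± 0.18, each negative on 4 of 4 arrays. YCT1, a cysteine transporter gene, was the highest (-0.06 ± 0.33). DAL5 had values on 3 arrays (-0.14 to 0.27), and SEO1 and SOA1 had none.

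**Figure D3:**
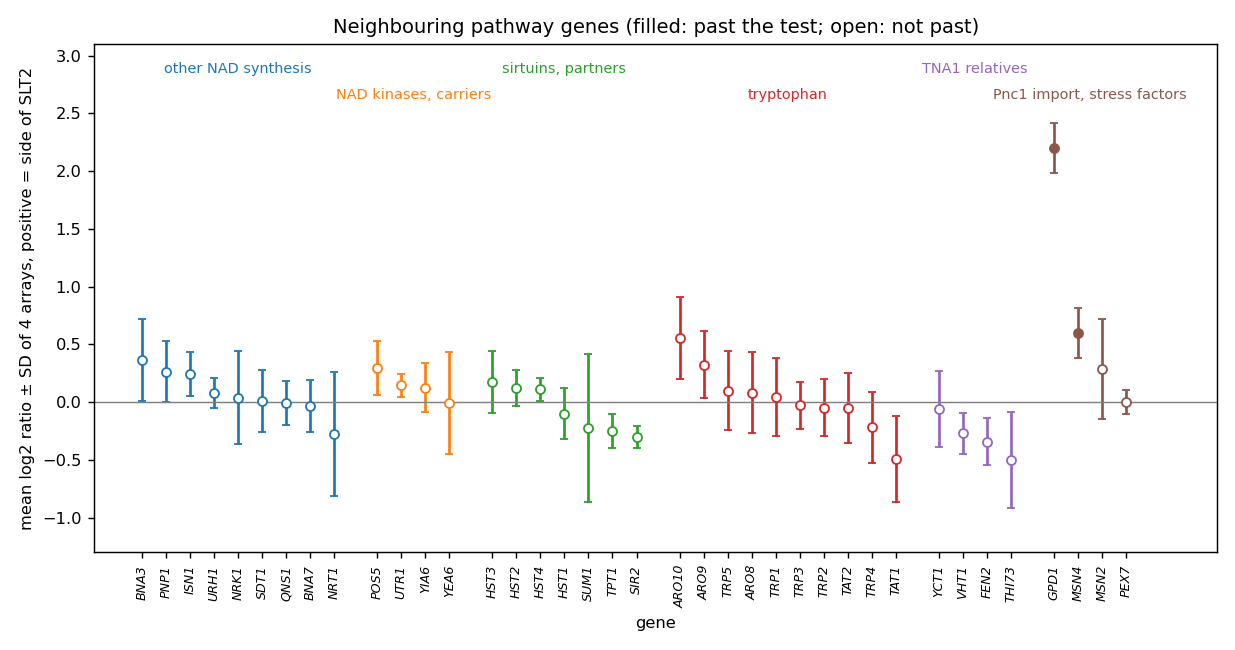
Mean log2 ratio ± SD of 4 arrays (vertical axis, positive on the side of SLT2) for each gene of the 6 further lists that had 4 values, with filled points for genes past the test and open points for the rest. GPD1 (2.20) and MSN4 (0.60) are the filled points, and the TNA1 relatives all lie below 0.

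Pnc1 lacks a peroxisomal signal of its own and is known to enter peroxisomes together with Gpd1, the glycerol-3-phosphate dehydrogenase. GPD1 had 2.10, 2.27, 1.97 and 2.46 on arrays 1 to 4. Every value lay on the side of SLT2 and above those of PNC1, by 1.03 to 1.53 within an array, and the mean was 2.20 ± 0.22 (adjusted p = 3.04e-05 in limma). PEX7, the gene of the receptor for that import, ran from -0.11 on array 2 to 0.14 on array 4 and did not pass (adjusted p = 1.0 in limma). PEX21 had values on 2 arrays (-0.09 and -0.12), and PEX18 had none.

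The stress factors Msn2 and Msn4 are known activators of PNC1. MSN4 had 0.34, 0.76, 0.51 and 0.79 on arrays 1 to 4. All lay on the side of SLT2, the higher on arrays 2 and 4, and the mean was 0.60 ± 0.21 (adjusted p = 0.0250 in limma). That call ended without array 4 (0.59, adjusted p = 0.0521) and with arrays centred on all measured ORFs (adjusted p = 0.0703). MSN2 ran from -0.25 on array 1 to 0.82 on array 4, with a mean of 0.29 ± 0.43 that did not pass (adjusted p = 0.351 in limma). Of the 4 tested genes of this list 2 passed on the side of SLT2, where 4.56% of all tested ORFs did, and 0 opposite (1.39%). The list was chosen with earlier results of these data known, so nothing is concluded from that count.

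Likeness to PNC1 was measured as the root mean square difference of the log2 ratios over the 4 arrays. The nearest of the other tested ORFs was SSE2, an Hsp110 chaperone gene (0.92 ± 0.13, root mean square difference 0.06). SUR1, a gene of sphingolipid mannosylation, followed (0.90 ± 0.03, difference 0.08), then ECM38, the gamma-glutamyltranspeptidase gene (0.93 ± 0.06, difference 0.09), SVS1 (0.94 ± 0.06, difference 0.09) and YBR071W (0.87 ± 0.13, difference 0.10). All 5 had a value between 0.79 and 1.12 on each array and passed the test, as 4.56% of all tested ORFs did on the side of SLT2. Choosing them by likeness to PNC1 largely fixed both in advance, so neither is a result about these genes. With 4 arrays this measure finds genes of the same size and steadiness of ratio.

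Gene order gave a second view. In the gene table of assembly R64, PNC1 lies beside OCH1, the gene of the mannosyltransferase that starts the outer chains of wall mannoproteins. OCH1 had 1.09, 1.22, 1.16 and 1.32 on arrays 1 to 4 and also passed on the side of SLT2 (1.20 ± 0.10, adjusted p = 0.000770 in limma). VIR1, on the other flank, had 0.47 ± 0.20 and did not pass (adjusted p = 0.0810 in limma). NPT1 lies beside PTP2, a protein phosphatase gene with 1.13 ± 0.05 that passed, while NPT1 itself stayed at 0.05. RPB10, on the other flank of NPT1, had -0.33 ± 0.54 and did not pass (adjusted p = 0.198 in limma). The tested flanking genes of the other members, TNA1 included, did not pass either. OCH1 and PTP2 were thus the only flanking genes past the test. Of all tested ORFs, 4.56% passed on the side of SLT2, and an effect of position was not tested. The row YGR259C, next to TNA1 by systematic number and absent from the gene table, had -0.52, -0.30, -0.38 and -0.38. Its position was not available, so whether it overlaps TNA1 was not checked, and it may not be a separate neighbour. RAD2, the gene that flanks TNA1 in the gene table, had -0.37 ± 0.09. YGR259C and RAD2 were negative on each array and did not pass (adjusted p = 0.107 and 0.127 in limma). APL6, on the other flank of TNA1, had -0.42 on array 1 and 0.30, 0.19 and 0.13 on arrays 2 to 4, a mean of 0.05 ± 0.32 that did not pass (adjusted p = 0.885 in limma). These neighbours were chosen after the values of the NAD genes were seen, and signal shared between neighbouring rows was not tested.

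**Figure D4:**
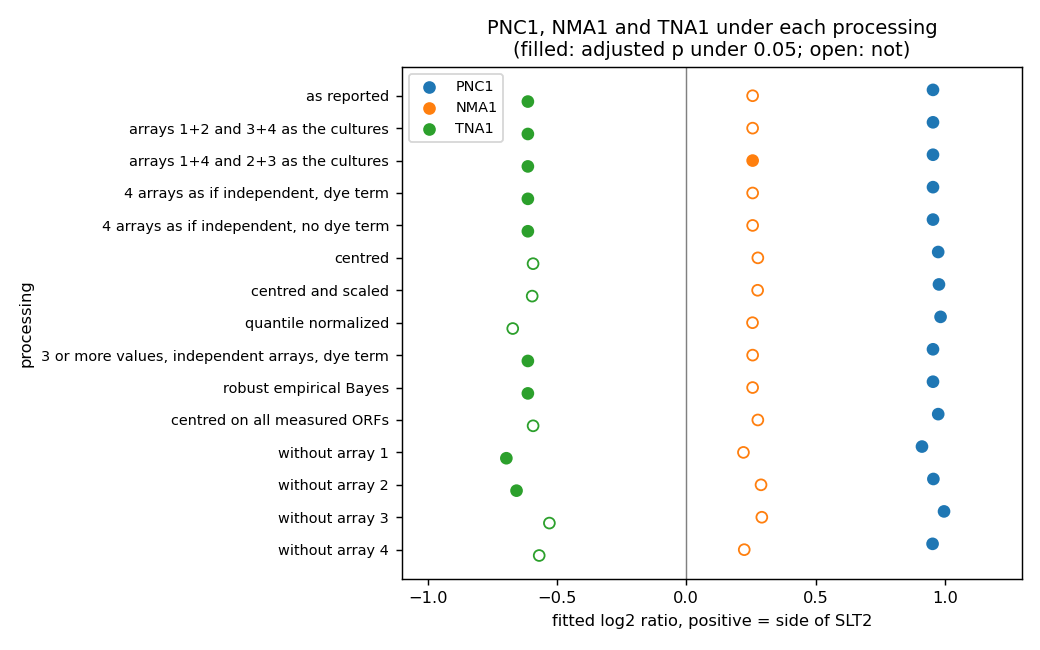
Fitted log2 ratio (horizontal axis, positive on the side of SLT2) of PNC1, NMA1 and TNA1 under the processing reported and 14 others (vertical axis), with filled points where the adjusted p was under 0.05. PNC1 stays between 0.91 and 1.00 and filled throughout, TNA1 is open in 6 of the 14 others, and NMA1 is filled in 1.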

How the data were processed

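The deposited table held a log2 ratio of the 2 channels per ORF and array; the base is taken as log2, and how the authors scanned, background-corrected, normalized and filtered was not stated in any label. Of 6209 rows, 2 control rows were left out, and 5654 of 6207 ORFs matched the R64 gene table. Empty cells made up 16.0% to 21.3% of ORFs per array. Turned ratios correlated across ORFs, which are not replicates, with r from 0.08 (arrays 1 and 4) to 0.74 (arrays 2 and 4). Without intensities the depth is unknown, and precision is limited by the number of cultures (n = 2) behind the 4 arrays.

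Signs were turned by the labels' dyes and set by SLT2. With limma 3.58.1 in R 4.3.3 (lmFit, eBayes), the arrays of a culture were averaged. No label ties an array to a culture, so both possible pairings were fitted and the larger p kept; averaging across cultures, as the untrue pairing does, does not measure their spread. The code was run on simulated data with noise drawn independently for each array, and the fitted means matched the simulated ones. Those data held no difference between cultures, so the run does not check the error rate of the test here. Alternatives were each pairing, 4 independent arrays with or without a dye term, leaving out each array, robust empirical Bayes, quantile normalization, centring, scaling, other thresholds and a test that admits ORFs with 3 values.

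Members and lists were chosen with earlier results of these data known. The genes named are the 10 members, in each list those past the test with its highest and lowest mean, the 5 ORFs nearest PNC1, and SLT2; QNS1, BNA3's companions under one pairing, YEF1, FEN2, VHT1, MSN2, genes with under 4 values and the neighbours were named after their values were seen.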

Additional observations from a re-analysis of the deposited data

Results flagged for a closer look

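Among 53 genes checked, 3 had a single array well apart from the rest. NPT1 had 0.43 on array 1, while arrays 2 to 4 gave -0.11 to -0.02. ISN1, the gene of a nucleotidase, had -0.04 on array 3, with 0.32 to 0.37 on the remaining arrays. SSE2, the gene nearest to PNC1 by its ratios, had 1.12 on array 1 against 0.85 to 0.88 on the others. By chance about 1 in 20 such sets of 4 independent values would show this, and 3 of 53 is close to that share. The 4 arrays come from 2 cultures, so the rate is only a guide. SSE2 was among the genes checked because its values are like those of PNC1, which was also highest on array 1 (1.07). PNC1 had 0.90 to 0.93 on the other arrays and fell just short of being flagged itself. Without array 1 it had 0.91 and still passed (adjusted p = 0.0194 in limma). Whether array 1 differs at the spots of NPT1 and SSE2, or array 3 at that of ISN1, for a technical reason was not tested.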

How the results depend on the processing

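PNC1 kept its side and its call in each of the 14 other fits and at both other thresholds, with 0.91 to 1.00 when arrays were left out. Fits that change only the pairing, the dye term or the error model repeat the reported mean by construction, so their means are not separate checks. The reported p is the larger of those from both pairings, so a call as reported must also hold in each single pairing. The other thresholds reread the same adjusted p (0.00264 in limma). Those calls of PNC1 were therefore fixed in advance and are not separate checks either. The count of NAD genes past the test on the side of SLT2 was 1, and 2 when array 1 was paired with 4 and array 2 with 3 (the crosswise pairing); without single arrays it stayed at 1. The count opposite was 1, and 0 with arrays centred, centred and scaled, centred on all measured ORFs (added after the data were seen), quantile normalized, and at a threshold of 0.01; without single arrays it ran from 0 to 1. Over all ORFs, 207 lay on the side of SLT2 and 63 opposite. These counts were 598 and 631 in the crosswise pairing, 319 and 193 for 4 independent arrays with a dye term, 338 and 189 with ORFs of 3 or more values, 358 and 225 with robust empirical Bayes, 166 and 27 with arrays centred, 147 and 19 with scaling as well, 123 and 8 when centred on all measured ORFs, 297 and 153 at a threshold of 0.1, and 120 and 13 at 0.01. Without single arrays they ran from 151 to 196 and from 39 to 60, in fits that took the 3 arrays as independent. The lists of other NAD synthesis, kinase and carrier, sirtuin, tryptophan and TNA1-related genes had 0 calls as reported and up to 3 on one side in the crosswise pairing. Each ratio already pairs treated with untreated RNA of 1 culture, so no further replicate block was fitted. The causes of these differences were not tested.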
